A study of Mus musculus with 3 samples.

Results

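The integrated stress response regulators examined here were 6 genes, Atf4, Atf5, Ddit3, Trib3, Chac1 and Cebpb, chosen by name from a table of 20469 distinct mouse gene names. Their levels were read as CPM (counts scaled to the total of the well) in wild-type mouse embryonic fibroblasts (MEF) by DRUG-seq2, a barcoded assay in which the wells of a 96-well plate are pooled before sequencing. On 3 plates, cells were kept for 4 days in a medium named CFAE+8, most wells with 1 compound from a purchased set of kinase inhibitors, and 218 compound wells for 211 compounds had enough counts to be used. No dose and no vehicle well is named, so a compound was compared with all other screening wells of its plate, which were mostly wells with other compounds. Another 30 wells of plate 3 carried names read here as those of media: bC8FAE (5 wells), bC6FAE[2] (3), bC6FAE[10] (4), bCLFAE (4), bCSFAE (4), bCFAE (3), basal (3) and MEF (4). The 5 bC8FAE wells were taken from their name as the screening medium without a compound. The composition of the other media is not stated in the labels. MEF is also the name of the cells, and whether it names a medium or another state of the cells is not stated. All wells were bulk cultures of wild-type fibroblasts, and nothing in the labels says that wells of 1 medium came from separate embryos, so p-values measure the spread between wells.

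In the integrated stress response, kinases that sense amino acid shortage, endoplasmic reticulum (ER) stress, double-stranded RNA or heme shortage phosphorylate the translation factor eIF2alpha. General protein synthesis then slows while the ATF4 and ATF5 proteins are made more, through upstream open reading frames, and ATF4 also acts downstream of mTORC1. ATF4 and ATF5 are basic leucine zipper (bZIP) transcription factors. Ddit3 encodes CHOP and Cebpb encodes C/EBPbeta, both bZIP proteins that can pair with ATF4. Trib3, a pseudokinase, and Chac1, which degrades glutathione, are well-known targets of ATF4 and CHOP. These data measure mRNA and not the translation of ATF4.

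On mm10 (GENCODE vM21), Atf4 lies at chr15:80255184-80257541 on the plus strand and Atf5 at chr7:44812256-44816658 on the minus strand. Ddit3 lies at chr10:127290774-127296288 on the plus strand, Cebpb at chr2:167688915-167690418 on the plus strand, Trib3 at chr2:152337422-152344032 on the minus strand and Chac1 at chr2:119351229-119354381 on the plus strand. Exons of Atf5 overlap Nup62 and Il4i1 on the opposite strand, those of Ddit3 overlap Mars and Gm4189, and those of Cebpb overlap Tmem189. The labels do not say whether counting used the strand, so reads of these 3 members and their partners cannot be told apart with certainty. The annotation also holds another protein-coding entry named Ddit3, chr10:127290829-127293753, on the same strand with overlapping exons. How counting treated that entry is not stated.

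The composite element bound by a C/EBP and an ATF protein was searched in promoter windows from RefSeq (GRCm38.p6), which run from 250 bases before to 50 bases after a gene's start, as TGATGNAA on both strands. It occurred in 1304 of 32851 windows (3.97%), and among the 6 members in those of Trib3 and Chac1. These stretches are shown because Trib3 and Chac1 are the members with the largest changes below, with the stretch from Asns, an amino acid synthesis gene that changed in the same wells. Capitals mark the match, which reads on the opposite strand in Trib3 and Chac1. Relative to the RefSeq start of the gene, the match begins at position 14 in Trib3, after the start. It begins at -193 in Chac1 and at -23 in Asns, before the start.
Trib3 promoter, chr2:152344031-152344102, minus strand: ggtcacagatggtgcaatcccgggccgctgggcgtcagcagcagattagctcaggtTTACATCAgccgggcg
Chac1 promoter, chr2:119350993-119351112, plus strand: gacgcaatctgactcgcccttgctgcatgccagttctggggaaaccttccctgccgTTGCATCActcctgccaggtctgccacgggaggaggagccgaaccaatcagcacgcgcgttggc
Asns promoter, chr6:7693180-7693288, minus strand: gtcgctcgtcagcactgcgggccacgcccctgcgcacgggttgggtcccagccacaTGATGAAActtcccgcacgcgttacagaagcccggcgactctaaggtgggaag
A match describes these letters and is no evidence of binding. The ER stress response element, searched on both strands, occurred in 39 windows (0.119%), none of them a member's.

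The wells differed in depth. Median total counts of the screening wells were 318876 on plate 1 (range 45416 to 591025, 90 wells), 611204 on plate 2 (92437 to 1206219, 87 wells) and 433274 on plate 3 (119295 to 703918, 46 wells). The medium wells had 119295 to 726228 counts, and the lowest totals were those of bC8FAE well 4 (119295) and MEF well 3 (138747). The 10 fibroblast markers, collagens and other matrix and surface genes, were all in the table and summed to 2161 to 10339 CPM per screening well. Over all screening wells, the pan-leukocyte marker Ptprc had 6 counts, the epithelial marker Epcam 6 and the endothelial marker Pecam1 13. Other markers on the same lists were present, with 3508 counts of Lyz2, 2990 of Cd68 and 1299 of Tyrobp (macrophage), 3016 of Krt18 and 1148 of Krt19 (epithelial), 472 of Kdr (endothelial), 28472 of Acta2 (smooth muscle) and 15759 of Gap43 (neural). Summed per screening well, the macrophage list lay between 0 and 2190 CPM, the epithelial between 0 and 870 CPM, the endothelial between 0 and 34.6 CPM, the smooth muscle between 28.2 and 4066 CPM and the neural between 0 and 1266 CPM.

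Across the screening wells Atf4 had medians of 206.5 CPM on plate 1, 240.5 CPM on plate 2 and 217.5 CPM on plate 3. It spanned 88.1 to 596 CPM on plate 1, 169 to 798 CPM on plate 2 and 144 to 450 CPM on plate 3. CPM is not scaled to transcript length, so levels are compared within a gene and not between genes. Cebpb had medians of 73.9, 93.5 and 92.1 CPM on plates 1, 2 and 3, Ddit3 64.3, 66.0 and 66.1 CPM, and Atf5 46.5, 58.3 and 45.2 CPM. Trib3 and Chac1 were near the limit of the assay, with medians of 4.44, 4.59 and 4.95 CPM for Trib3 and 2.52, 4.29 and 1.95 CPM for Chac1. Trib3 had 0 counts in 27 of 90, 10 of 87 and 7 of 46 wells, and Chac1 in 44, 15 and 18. At such depths 1 or 2 counts make the difference between wells, and Trib3 and Chac1 entered the tests on each plate through the 1 to 3 wells in which they were high.

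**Figure D1:**
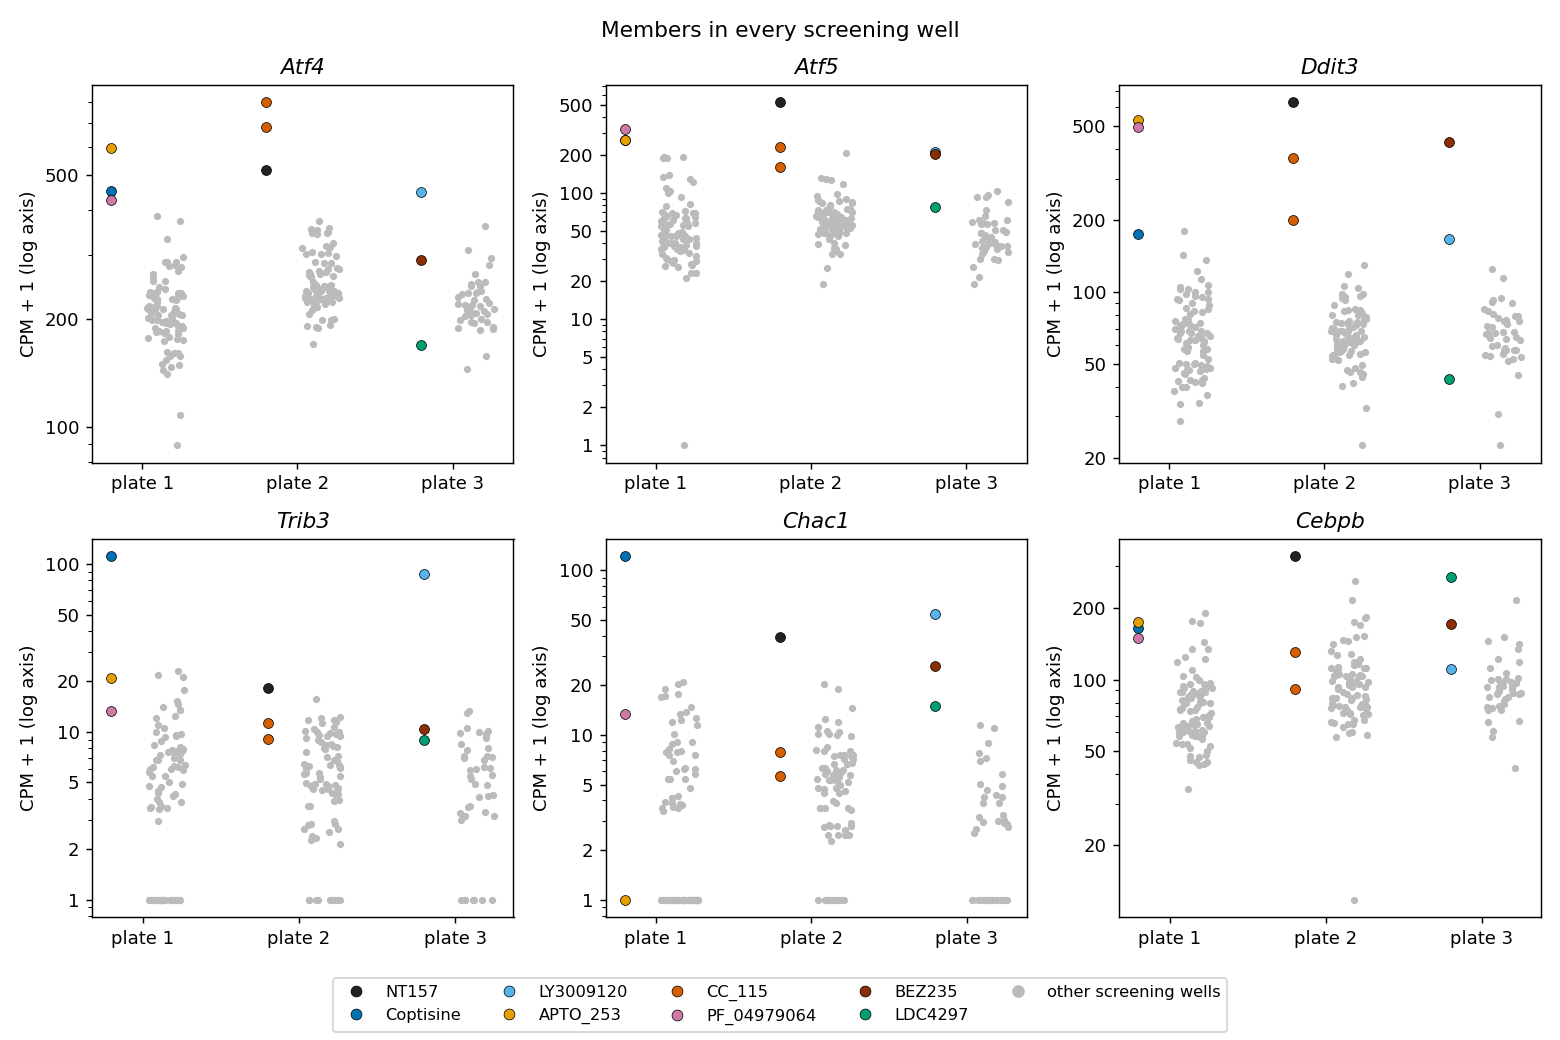
CPM + 1 of each of the 6 genes in every screening well of the 3 plates, on a log axis, with the wells of 8 named compounds in colour left of the other wells in grey. Most wells sit close together and a few compound wells stand above them, such as the coptisine chloride well at 120 CPM of Chac1 on plate 1.

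The media wells on plate 3 were compared to ask how the 6 genes differ between culture media. Cebpb, Ddit3 and Atf5 were lower in the bC8FAE screening medium than in the wells named MEF, and Cebpb showed the largest of these differences. Cebpb had 65.2, 56.5, 73.4, 117 and 92.1 CPM in the 5 bC8FAE wells, against 208, 139, 353 and 219 CPM in the 4 MEF wells. Ddit3 had 63.3, 58.6, 70.8, 50.3 and 76.7 CPM in bC8FAE wells, against 105, 151, 101 and 118 CPM in MEF wells. Atf5 had 39.5, 45.6, 32.9, 92.2 and 35.8 CPM in bC8FAE wells, against 73.8, 76.7, 72.1 and 108 CPM in MEF wells. For Atf5 the bC8FAE well with the fewest counts lay within the range of the MEF wells. Cebpb fell by 1.57 ± 0.19 on the log2 scale (SE; edgeR quasi-likelihood test, Benjamini-Hochberg adjusted p = 7.6e-10), Atf5 by 1.02 ± 0.22 (adjusted p = 0.00020) and Ddit3 by 0.95 ± 0.20 (adjusted p = 9.2e-05). Atf4 had 235, 187, 215, 360 and 225 CPM in bC8FAE wells and 244, 233, 396 and 291 CPM in MEF wells, with overlapping groups. Its fall of 0.34 ± 0.13 (adjusted p = 0.042) was not called in 6 of the 9 fits that left out 1 well, nor in the fit without both low wells. In all, 4 of the 4 members that could be tested were called, where 32.1% of the 6984 genes tested were. In a bulk well, fewer cells of a type and less RNA per cell cannot be told apart.

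Trib3 and Chac1 reached the filter on low counts in 0 of the 30 medium wells and were tested in a fit without it, chosen after seeing the data, in which 14.1% of 16829 genes were called for bC8FAE over MEF. Trib3 had 5 counts in all bC8FAE wells and 19 in all MEF wells, a ratio of 0.171 (95% interval 0.0499 to 0.474, counting error only). It fell by 2.43 ± 0.66 (edgeR adjusted p = 0.0029), and the bC8FAE wells, at 0 to 5.06 CPM, lay below the MEF wells, at 14.3 to 17.1 CPM. Chac1 had 2 counts in bC8FAE wells and 12 in MEF wells, a ratio of 0.108 (0.0118 to 0.487). Its fall of 2.91 ± 0.88 (adjusted p = 0.010) was not called without MEF well 1 (adjusted p = 0.196). For bC8FAE over bCFAE, where 4.12% of genes were called without the filter, Chac1 had 2 counts against 16, and its fall of 2.75 ± 0.84 (adjusted p = 0.031) was lost in 4 of 8 fits that left out 1 well.

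The fall of Cebpb was also found between bCFAE and basal medium, which share no wells with the comparison above but the estimate of the spread. Cebpb had 88.7, 67.5 and 51.2 CPM in bCFAE wells, against 206, 256 and 225 CPM in basal wells, and fell by 1.82 ± 0.21 (edgeR adjusted p = 1.03e-10). Ddit3 had 66.2, 90.9 and 102 CPM in bCFAE wells, against 155, 141 and 143 CPM in basal wells, and fell by 0.91 ± 0.20 (adjusted p = 0.00017). Atf5 had 52.7, 59.2 and 37.2 CPM in bCFAE wells and 76.1, 64.6 and 72.9 CPM in basal wells, and its fall of 0.60 ± 0.24 (adjusted p = 0.044) was lost in 5 of 6 fits without 1 well. With 3 of 4 members called, the background was 34.5% of genes. For basal over MEF 0 of 4 members were called, against 0.644% of genes.

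Markers of other cell types moved with these 2 media comparisons. Of 7 macrophage genes 6 were in the table, and their summed level was 39.1 to 101 CPM in bC8FAE wells, against 197 to 339 CPM in MEF wells, and 51.2 to 55.1 CPM in bCFAE wells, against 135 to 298 CPM in basal wells. The difference lay mainly in Lyz2, which averaged 27.5 CPM in bC8FAE and 170 CPM in MEF wells, while Ptprc had 0 counts in all 4 of these media. The 5 smooth muscle markers summed to 141 to 243 CPM in bC8FAE wells, against 2119 to 3426 CPM in MEF wells, and to 1607 to 1876 CPM in bCFAE wells, against 3163 to 3779 CPM in basal wells. The 5 neural markers were higher, at 248 to 415 CPM in bC8FAE wells, against 79.6 to 101 CPM in MEF wells, and 393 to 413 CPM in bCFAE wells, against 60.2 to 81.7 CPM in basal wells. The 5 epithelial markers summed to 101 to 121 CPM in bCFAE wells, against 28.5 to 52.9 CPM in basal wells. The part of these markers in the levels of Cebpb, Ddit3 and Atf5 was not tested. Mars, which overlaps Ddit3 on the other strand, rose by 1.01 in bC8FAE over MEF and by 0.72 in bCFAE over basal, opposite to Ddit3.

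The other comparisons with bCFAE share the bCFAE wells. Cebpb had 107, 138, 130 and 121 CPM in bC6FAE[10] wells, above the 3 bCFAE wells, and rose by 0.85 ± 0.20 (edgeR adjusted p = 0.0016). In the same comparison Ddit3 had 37.7, 51.8, 37.1 and 67.3 CPM in bC6FAE[10] wells and fell by 0.77 ± 0.21 (adjusted p = 0.0067), a call lost without bCFAE well 2 (adjusted p = 0.059). Here 2 of 4 members were called and 13.7% of genes. In bC6FAE[2] over bCFAE, Cebpb rose by 0.74 ± 0.22 (adjusted p = 0.026), a call lost in 3 of 6 fits without 1 well, with 8.53% of genes called. In bC8FAE over bC6FAE[10], Cebpb fell by 0.76 ± 0.19 (adjusted p = 0.0060) and 9.09% of genes were called. No member was called with the filter in bC8FAE over bCFAE, bCLFAE over bCFAE, bCSFAE over bCFAE, bC6FAE[10] over bC6FAE[2] or bCLFAE over bCSFAE, where 11.2%, 6.44%, 6.00%, 0.401% and 0.0286% of genes were called. Atf4 was called lower in bC8FAE, bC6FAE[2] and bCSFAE than in bCFAE in the fit without both low wells. Its 3 bCFAE wells lay between 286 and 291 CPM.

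**Figure D2:**
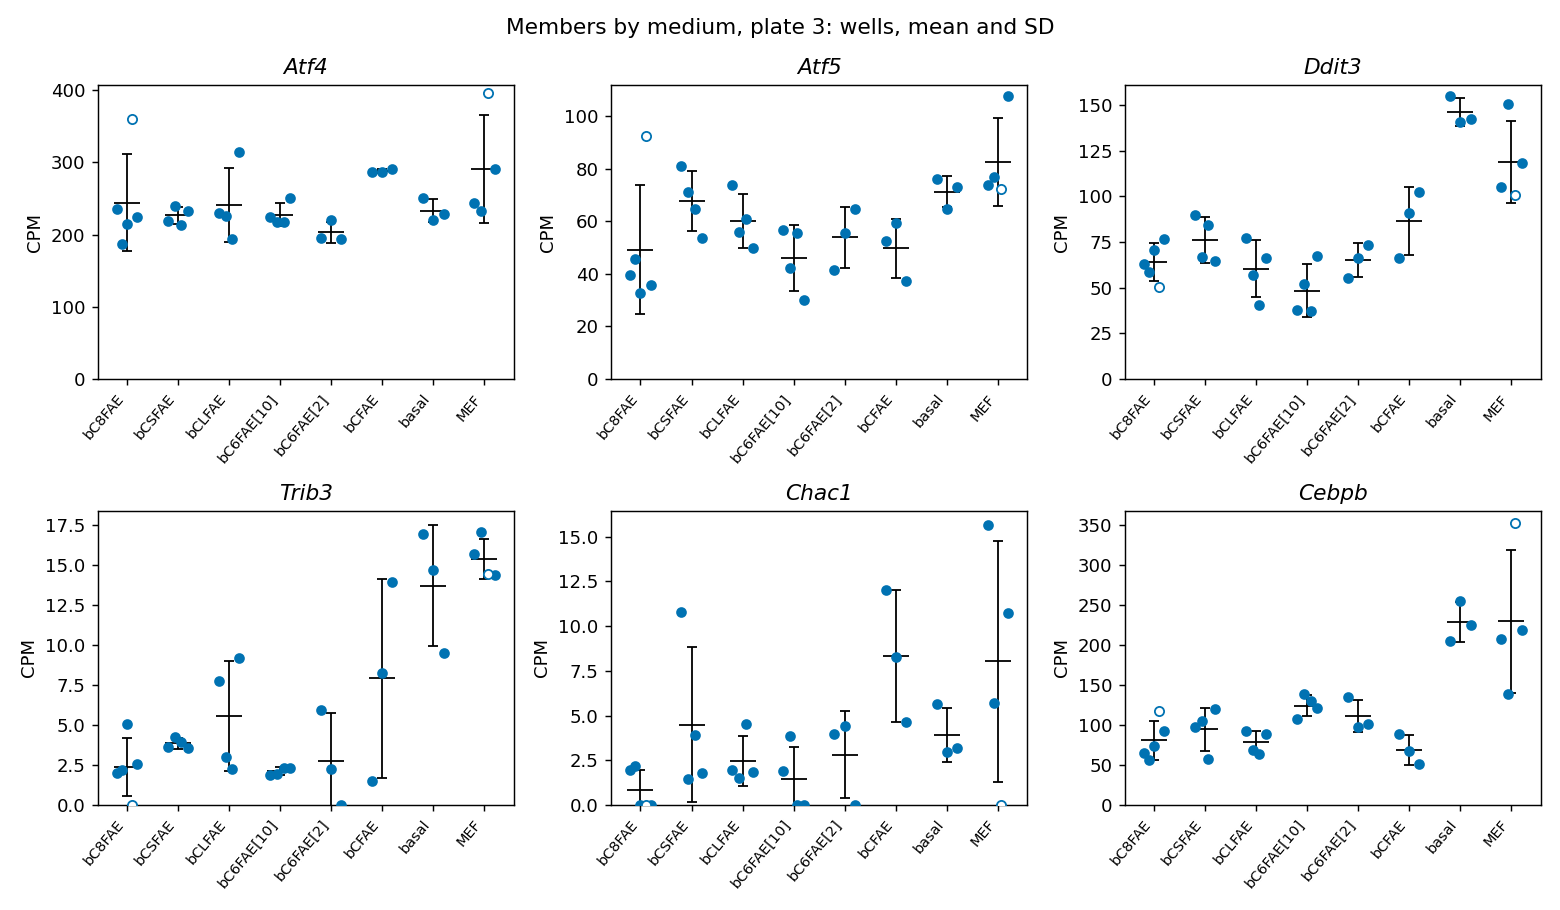
CPM of each of the 6 genes in the 8 media on plate 3, with 1 point per well and the mean and SD as a bar. Open points are the 2 wells with the lowest totals, and Cebpb was highest in MEF (139 to 353 CPM) and basal wells (206 to 256 CPM).

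To ask which compounds change the 6 genes, each was set against the rest of its plate. Of 211 compounds, Atf5 was called higher for 7, Atf4 for 5, Ddit3 for 5, Trib3 for 3, Chac1 for 3 and Cebpb for 2, and no member was called lower for any compound in edgeR. At an unadjusted p under 0.05, the counts of lower members were 3 for Atf4, 1 for Atf5, 1 for Ddit3, 5 for Trib3, 0 for Chac1 and 2 for Cebpb. Trib3 and Chac1 were so low in most wells that a fall in 1 well could hardly be called. Chac1, with 0 counts in the Sal003 well of plate 1, stood at -4.06 ± 3.37 and was not called. Over all genes and compounds, 0.258% of tests on plate 1, 0.393% on plate 2 and 0.517% on plate 3 were called higher. The calls came from 8 compounds, of which 7 had a single well, and such a well has no replicate of its compound. The wells with calls were those of NT157 (6 members, Trib3 not among them without the filter), coptisine chloride (4), LY3009120 (4), APTO_253 (3), CC_115 (3), PF_04979064 (2), BEZ235 tosylate (2) and LDC4297 (1).

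Atf4 rose in the wells of 5 compounds. It had 680 and 798 CPM in the 2 CC_115 wells, 1 of them the hydrochloride salt, against 169 to 518 CPM (median 238) in the rest of plate 2. CC_115, an inhibitor of mTOR and DNA-PK, was the 1 compound with a call that had 2 wells, and it gave a rise of 1.43 ± 0.15 (edgeR adjusted p = 5.2e-13), and neither well overlapped the rest. In the APTO_253 well Atf4 had 596 CPM, against 88.1 to 450 CPM in the rest of plate 1, and rose by 1.37 ± 0.28 (adjusted p = 0.0010). It had 450 CPM in the well of coptisine chloride, the salt of a plant alkaloid (1.12 ± 0.29, adjusted p = 0.030), second on plate 1 to APTO_253, and this call was lost with another scaling (adjusted p = 0.057). The NT157 well had 518 CPM, below both CC_115 wells (1.05 ± 0.29, adjusted p = 0.0036), and that of the pan-RAF inhibitor LY3009120 had 450 CPM (1.04 ± 0.24, adjusted p = 0.0029), which lay above the rest of plate 3 (144 to 360 CPM).

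Atf5, the paralogue of Atf4, rose in the wells of 7 compounds. In the NT157 well, a compound directed at the insulin receptor substrate proteins, it had 522 CPM, against 18.0 to 231 CPM (median 58.2) in the rest of plate 2, a rise of 3.02 ± 0.35 (edgeR adjusted p = 8.5e-12). It had 322 CPM in the well of PF_04979064 and 201 CPM in that of BEZ235 tosylate, both dual inhibitors of PI3K and mTOR, rises of 2.30 ± 0.64 (adjusted p = 0.020) and 2.00 ± 0.47 (adjusted p = 0.0031). The coptisine chloride well had 262 CPM (2.10 ± 0.53, adjusted p = 0.026), the LY3009120 well 209 CPM (2.02 ± 0.44, adjusted p = 0.0019) and the APTO_253 well 263 CPM (1.92 ± 0.60, adjusted p = 0.045). The CC_115 wells had 160 and 231 CPM (1.38 ± 0.37, adjusted p = 0.037), and neither was called when taken alone (free base 1.07, adjusted p = 0.99, hydrochloride 1.58, adjusted p = 0.25). The PF_04979064, APTO_253 and coptisine chloride wells were the 3 highest of plate 1, and those of LY3009120 and BEZ235 tosylate the 2 highest of plate 3. Without a filter on low counts the calls for APTO_253, PF_04979064 and CC_115 were lost, at adjusted p = 0.115, 0.068 and 0.051.

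Ddit3, which encodes CHOP, rose by more than 2.7 on the log2 scale in 4 wells. It had 628 CPM with NT157, against 21.6 to 365 CPM (median 65.5) in the rest of plate 2, and rose by 3.19 ± 0.32 (edgeR adjusted p = 2.9e-14). It had 526 CPM with APTO_253, 495 CPM with PF_04979064 and 428 CPM with BEZ235 tosylate. The APTO_253 and PF_04979064 wells were the 2 highest of plate 1 and the BEZ235 tosylate well the highest of plate 3. In that order the rises were 2.75 ± 0.41 (adjusted p = 1.8e-06), 2.72 ± 0.49 (adjusted p = 0.00010) and 2.71 ± 0.32 (adjusted p = 1.1e-08). The CC_115 wells had 200 and 365 CPM (1.83 ± 0.33, adjusted p = 0.00015), and the well of the free base was not called when taken alone (1.29, adjusted p = 0.99). Coptisine chloride had 174 CPM (1.26, adjusted p = 0.46) and LY3009120 166 CPM (1.19, adjusted p = 0.27), neither called. Against the 5 bC8FAE wells alone, an alternative reference for plate 3, the LY3009120 value was called (1.32, adjusted p = 0.0011). Mars, the opposite-strand partner of Ddit3, was not called in the NT157, APTO_253, PF_04979064, BEZ235 tosylate or CC_115 comparisons (-0.92, -0.14, -0.27, -0.42 and 0.46). With coptisine chloride Mars rose by 1.23 ± 0.31 (adjusted p = 0.028), where Ddit3 stood at 1.26 and was not called.

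Trib3 and Chac1 were high in few wells, which alone carried them past the filter on low counts, so the values here come from the fits without it. In those fits 0.330% of genes were called higher with coptisine chloride, 1.46% with LY3009120 and 7.10% with NT157. Trib3 had 110 CPM (65 counts) in the coptisine chloride well, against 0 to 22.0 CPM (median 4.43) in the rest of plate 1, and rose by 4.44 ± 0.48 (edgeR adjusted p = 1.1e-10). It had 85.7 CPM (32 counts) with LY3009120, against 0 to 12.3 CPM in the rest of plate 3, and rose by 4.05 ± 0.49 (adjusted p = 3.5e-08). In the NT157 well it had 17.3 CPM (9 counts), and it was not called (1.72, adjusted p = 0.112), while the fit with the filter called it (adjusted p = 0.049). The coptisine chloride and LY3009120 wells lay above every other well of their plate, while the NT157 value rests on few counts.

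Chac1 had 120 CPM (71 counts) in the coptisine chloride well, against 0 to 19.9 CPM (median 2.45) in the rest of plate 1, a rise of 4.86 ± 0.54 (edgeR adjusted p = 1.4e-10, without the filter). With LY3009120 it had 53.6 CPM (20 counts), against 0 to 25.2 CPM in the rest of plate 3, a rise of 3.99 ± 0.74 (adjusted p = 0.00028). With NT157 it had 38.5 CPM (20 counts), against 0 to 19.3 CPM in the rest of plate 2, a rise of 2.99 ± 0.64 (adjusted p = 0.00031). BEZ235 tosylate had 25.2 CPM (8 counts) and was not called (2.70, adjusted p = 0.182). The main edgeR fit with the filter did not call it either (2.74, adjusted p = 0.107). Other fits with the filter did, with limma voom (3.20, adjusted p = 0.00024) and in edgeR against the bC8FAE wells alone (4.27, adjusted p = 0.0045). The APTO_253 well had 0 counts of Chac1 of 300348, which allows up to 9.99 CPM.

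Cebpb rose with NT157, at 329 CPM, against 10.8 to 259 CPM (median 93.5) in the rest of plate 2 (1.81 ± 0.33, edgeR adjusted p = 5.5e-06). It rose with LDC4297, a CDK7 inhibitor, at 270 CPM, against 41.3 to 216 CPM in the rest of plate 3 (1.29 ± 0.31, adjusted p = 0.0024). Both wells were the highest of their plate. Tmem189, which overlaps Cebpb, was called in neither.

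**Figure D3:**
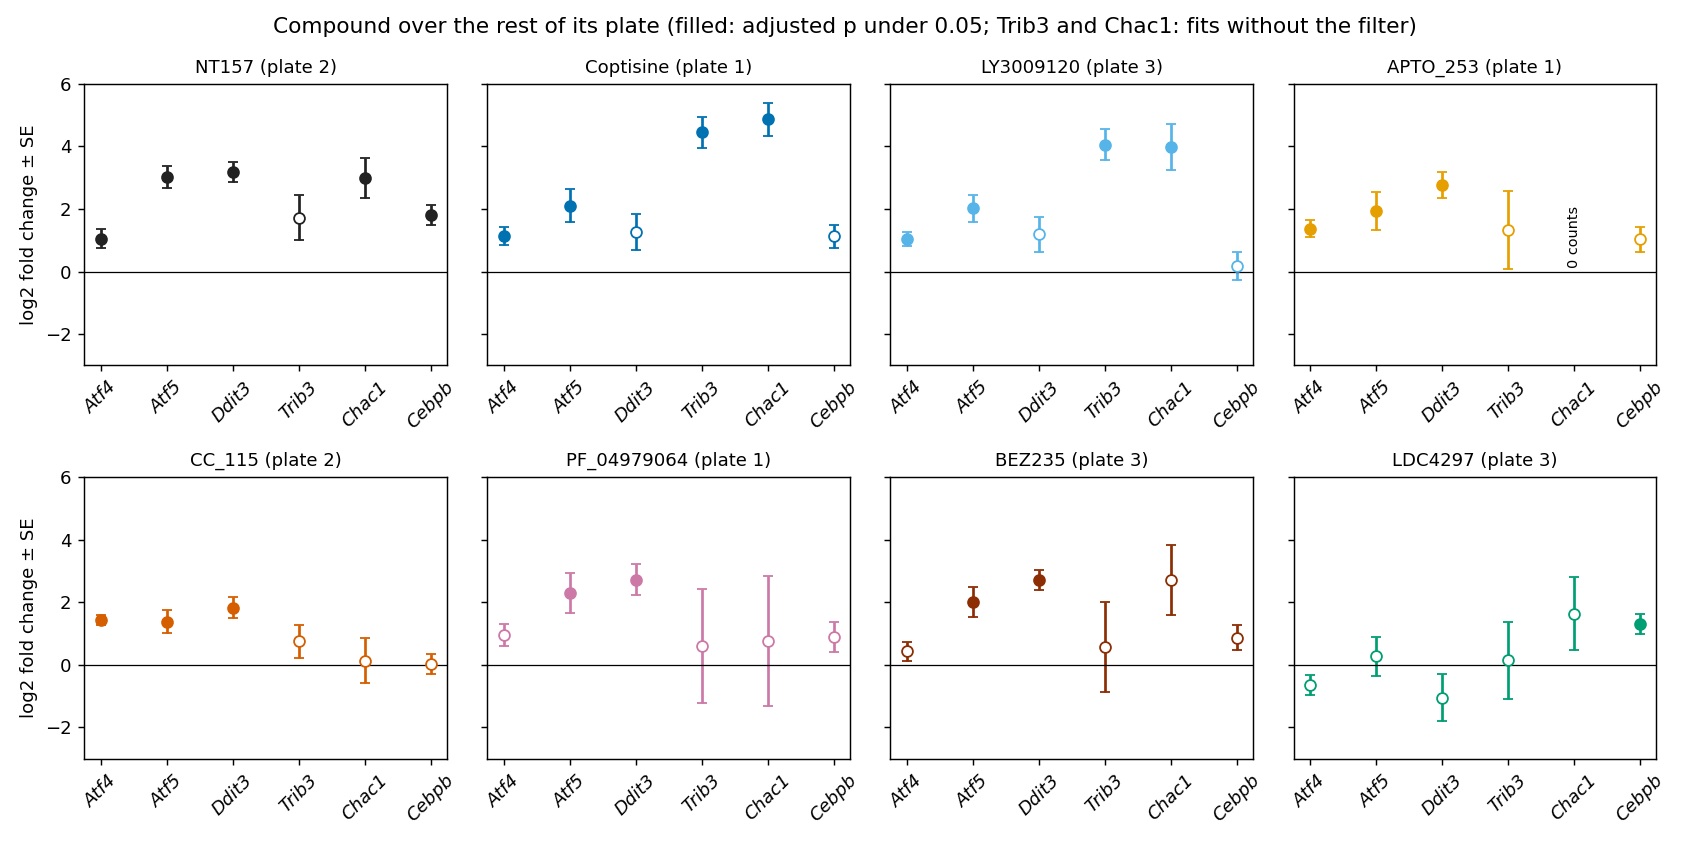
Log2 fold change (± SE) of the 6 genes for each of 8 compounds against the rest of its plate, with Trib3 and Chac1 from the fits without the filter on low counts, filled points for an adjusted p under 0.05 and a gene with 0 counts marked in words. Trib3 and Chac1 stood at 4.44 and 4.86 with coptisine chloride and at 4.05 and 3.99 with LY3009120, and Ddit3 above 2.7 with NT157, APTO_253, PF_04979064 and BEZ235 tosylate.

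The wells differed in more than these genes. NT157 had 519263 counts, LDC4297 500691, LY3009120 373337, BEZ235 tosylate 317771, APTO_253 300348, PF_04979064 161519 and coptisine chloride 591025, the highest total of plate 1. In the NT157 well 15.1% of genes were called higher, in LDC4297 9.34%, in BEZ235 tosylate 6.70%, in LY3009120 3.16%, in PF_04979064 2.99%, in APTO_253 2.61%, in CC_115 0.838% and in coptisine chloride 0.620%. With NT157 the mitochondrially encoded genes took 1.91% of counts (plate median 0.982%), fibroblast markers summed to 2540 CPM and macrophage markers to 643 CPM, mostly Lyz2 at 416 CPM, with Ptprc at 0 counts. LDC4297 had 1.89% mitochondrial counts and a fibroblast sum of 2161 CPM, and BEZ235 tosylate and PF_04979064 had 1.42% and 1.34% mitochondrial counts and macrophage sums of 308 and 279 CPM. The epithelial markers summed to 529 CPM with BEZ235 tosylate and 477 CPM with PF_04979064, against at most 147 CPM in the medium wells, and the smooth muscle markers to 2165 CPM with LDC4297. The part of these differences in the members' values was not tested.

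Compounds of the same plate were also set side by side. The pairs were chosen after their values were seen and all arms but CC_115 are 1 well, so these differences are a description with no test. Ddit3 had 628 CPM with NT157 and 200 and 365 CPM with CC_115, and Atf5 522 CPM with NT157 and 160 and 231 CPM with CC_115, while Atf4 was lower with NT157 (518 CPM) than with CC_115 (680 and 798 CPM). Ddit3 had 166 CPM with LY3009120 and 428 CPM with BEZ235 tosylate. PF_04979064, PI_103 hydrochloride and GNE_317, all inhibitors of PI3K and mTOR, had 495, 27.7 and 37.4 CPM of Ddit3 in 1 well each.

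Genes of the pathways around the members were counted in each comparison, from lists of known ATF4, CHOP and ER stress genes. With coptisine chloride, where 0.620% of all genes were called higher, 7 of 9 tested genes of amino acid synthesis and one-carbon metabolism rose (median log2 fold change 1.86, against -0.03 over all genes tested). They included Shmt2 (2.15), Mthfd2 (2.11), Psph (1.97) and Asns (1.94). Of 6 amino acid transporters 2 rose (Slc7a5 by 2.05, Slc1a5 by 1.67), and of 12 cytosolic tRNA synthetases 6 did (median 1.15), among them Wars (1.34). None of 12 ER chaperones and related genes were called (median -0.42). With LY3009120, where 3.16% of all genes were called higher, 7 of 9 amino acid synthesis genes rose (median 1.73, against -0.05). They included Psph (2.20), Mthfd2 (1.94), Psat1 (1.73) and Asns (1.62). The transporters Slc1a4 (2.72) and Slc7a5 (2.20) and 1 of 12 tRNA synthetases rose, and none of 13 ER genes were called. These 2 wells were also those with the highest Trib3 and Chac1.

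In the other wells with high Ddit3 the amino acid synthesis genes were not called higher. Of 9 such genes 0 rose with APTO_253 (median -0.73), 0 with PF_04979064 (-0.47) and 0 with BEZ235 tosylate (-0.57), in which Mthfd2 fell by 2.97, and of 10 genes 0 rose with CC_115 (-0.33) and 0 with NT157 (-0.67), in which Gpt2 fell by 3.11 and Pycr1 by 3.27. Of the amino acid transporters, Slc3a2 rose with NT157 (1.66, 1 of 7 tested) and with APTO_253 (1.19, 1 of 6). Of 13 tRNA synthetases with NT157, 2 rose (Aars 0.58, Sars 0.50) and 1 fell (Yars -0.85). No transporter or tRNA synthetase was called with PF_04979064 or BEZ235 tosylate. In the APTO_253 well Atf3, a bZIP factor induced by stress, rose by 2.83 and Ero1l, an ER oxidase, by 2.71. With BEZ235 tosylate Atf3 rose by 3.21 and Ppp1r15a, a subunit of the eIF2alpha phosphatase, by 2.59. In CC_115 no gene of any list was called. With NT157 8 of 14 ER genes rose (median 0.99, against -0.11), where 15.1% of all genes tested were called higher. The 8 included the chaperones Hspa5 (1.85) and Hsp90b1 (1.95), the cochaperone Dnajb9 (3.10) and the secreted factor Manf (1.93). Of 13 ER genes with a promoter window 5 held the ER stress element (Calr, Creld2, Hsp90b1, Hspa5 and Pdia6), against 0.119% of all windows. Dnajb9 and Manf were not among these 5, and the part of the element in the rises was not tested. Ero1l (2.69), Herpud1 (2.18) and Atf3 (3.11) also rose in the NT157 well. In LDC4297, where Cebpb was the member called, 0 of 13 ER genes and 0 of 9 amino acid synthesis genes rose.

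**Figure D4:**
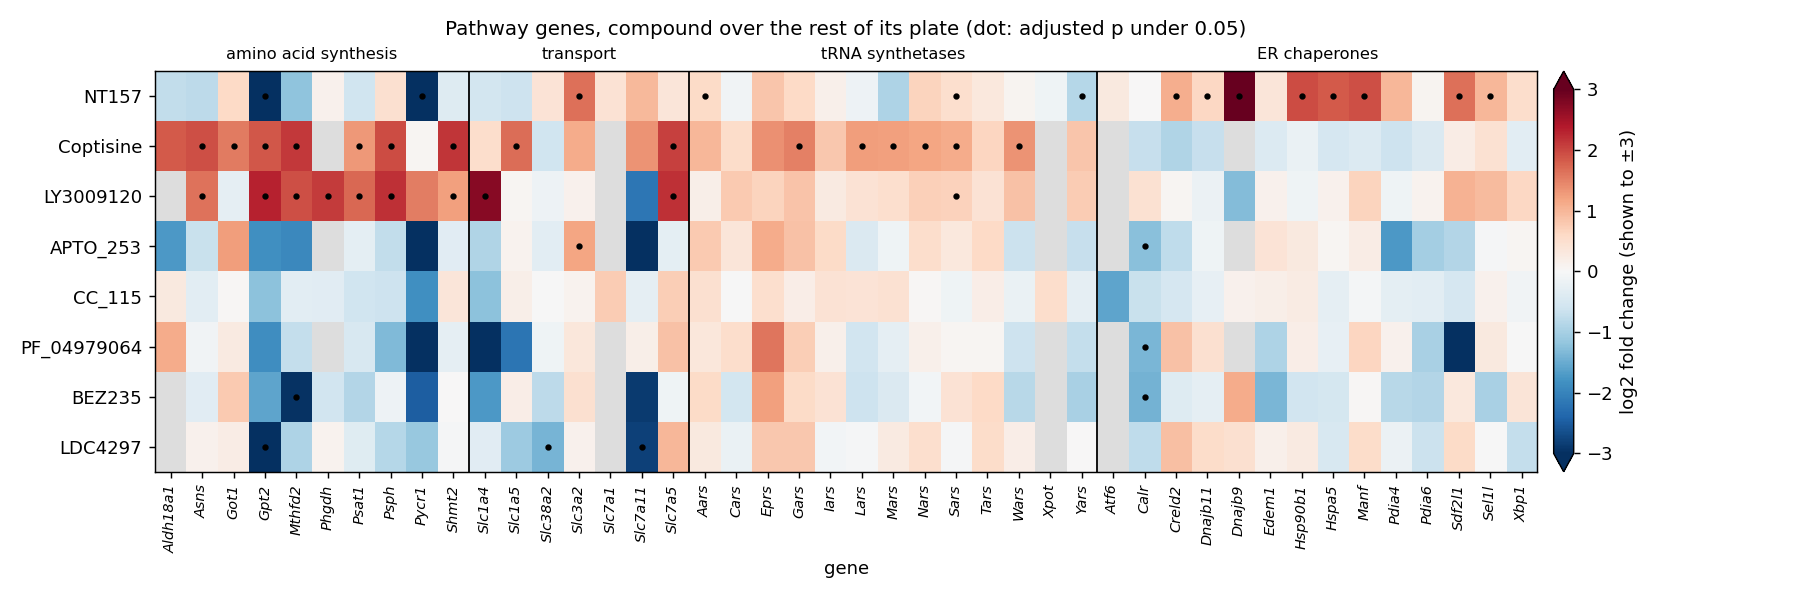
Log2 fold change of single genes of 4 lists (columns) in 8 compounds (rows) against the rest of the plate, from blue (lower) to red (higher), with a dot for an adjusted p under 0.05 and grey where a gene was not tested. Amino acid synthesis genes were called in 7 of 9 with coptisine chloride and with LY3009120, and ER genes in 8 of 14 with NT157.

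In bCFAE over basal 7 of 13 ER genes fell and 0 rose. There 6 of 12 tRNA synthetases and 4 of 5 mitochondrial stress genes rose, where 34.5% of all genes tested were called in either direction. Of 9 amino acid synthesis genes 3 rose and 2 fell, with Asns (1.17) and Shmt2 (0.77) among those that rose. In bC8FAE over MEF, where 32.1% of all genes were called in either direction, 6 of 13 ER genes fell and 0 rose. Of 12 tRNA synthetases 2 rose and 1 fell, and 3 of 5 mitochondrial stress genes rose. Of the 9 amino acid synthesis genes 0 rose and 1 fell. In bC8FAE over bCFAE, which shares wells with both comparisons, Asns (-0.76), Shmt2 (-0.87) and Mthfd2 (-0.78) of these 9 genes fell and 0 rose. There 11.2% of all genes were called in either direction.

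Compounds were then grouped by main target into 26 classes, and a member was called in 4 of them. A class pooled the wells of its compounds, and the 2 CC_115 wells counted separately. The spread came mostly from wells outside the class, so a class p-value does not measure how well compounds of the class agree. The wells are those already tested by compound above, so the class p-values are no independent support for those calls. The mTOR and dual PI3K/mTOR inhibitors (6 wells, 5 compounds) had higher Ddit3 by 1.72 ± 0.22 (edgeR adjusted p = 6.8e-11), Atf5 by 1.40 ± 0.25 (adjusted p = 1.1e-05) and Atf4 by 0.80 ± 0.12 (adjusted p = 5.4e-08), where 8.44% of genes were called higher. Ddit3 was 428 CPM with BEZ235 tosylate, 282 CPM on average with CC_115 and 495 CPM with PF_04979064, but 37.4 CPM with GNE_317 (-0.99, not called) and 27.7 CPM with PI_103 hydrochloride (-1.48, not called). Atf5 stood at 0.68 with GNE_317 and 0.03 with PI_103 hydrochloride, neither called. Ddit3 and Atf5 remained called without any 1 compound, while Atf4 was 0.28 (adjusted p = 0.25) without CC_115. Each of these fits still held compounds with high Ddit3 and Atf5, so they do not show a rise across the class. The 15 PI3K and AKT inhibitors that do not target mTOR had 0 of 9099 genes called, members included. Of 11 amino acid synthesis genes 0 rose and 4 fell in the mTOR class, where 1528 of 9099 genes were called in either direction.

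The RAF class (4 wells) had higher Trib3 by 2.21 ± 0.46 (edgeR adjusted p = 0.00078) where 2.20% of genes were called higher, and by 2.17 (adjusted p = 0.0023) without the filter. Without LY3009120 the value was 0.32 (adjusted p = 1.0). The other RAF compounds had Trib3 at 22.0 CPM (CCT196969), 5.18 CPM (dabrafenib mesylate) and 2.59 CPM (BRAF_inhibitor), none called. The MEK class (3 wells, all on plate 1) had higher Atf5 by 1.16 ± 0.44 (adjusted p = 0.048) and Cebpb by 0.85 ± 0.29 (adjusted p = 0.028), with 10.3% of genes called higher. Atf5 was 193 CPM with GDC_0623 and 188 CPM with trametinib DMSO solvate, and had 0 counts with Ro_5126766 in a well of 45416 counts, which allows up to 66.1 CPM. Both calls were lost without GDC_0623, without trametinib DMSO solvate, and without the filter on low counts (edgeR adjusted p = 0.102 for Atf5 and 0.065 for Cebpb). The FGFR class (4 wells, all on plate 2) had higher Cebpb by 0.60 ± 0.21 (adjusted p = 0.038, 7.76% of genes called higher), a call lost without Erdafitinib (0.43), without FIIN_2 (0.41) and without the filter (0.57, adjusted p = 0.092).

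**Figure D5:**
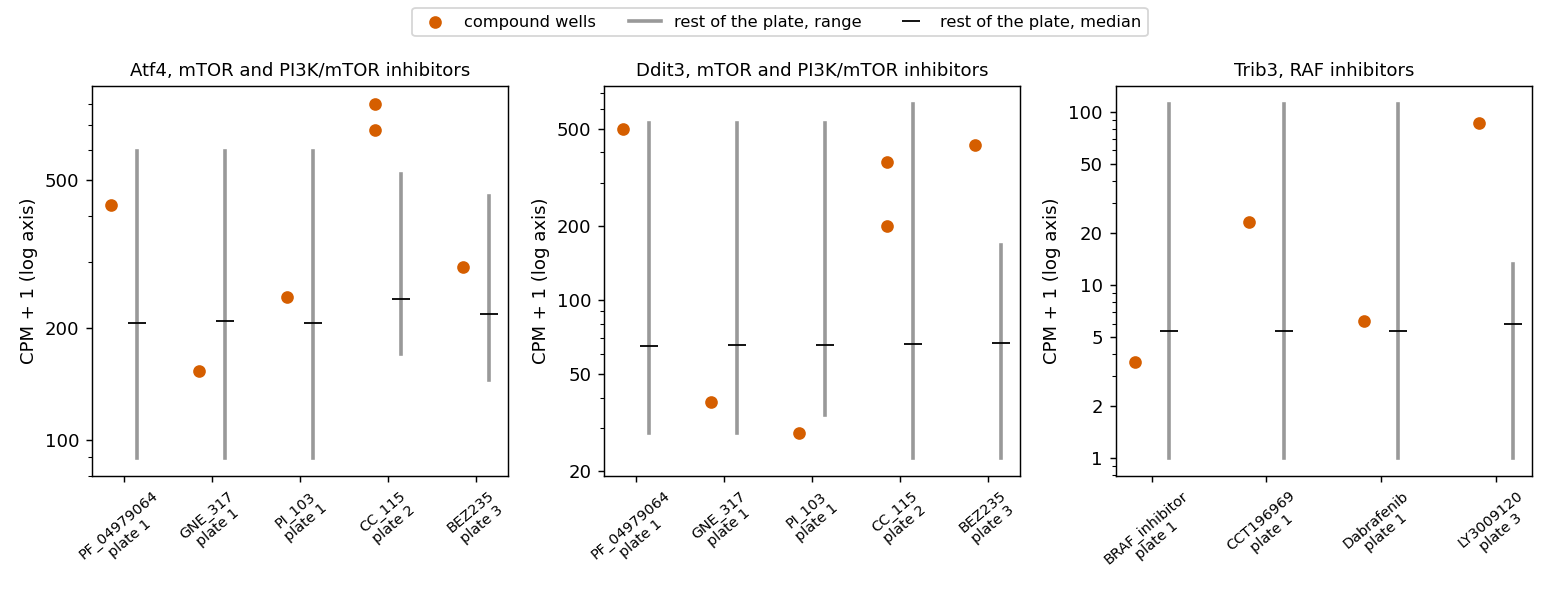
CPM + 1 on a log axis of Atf4 and Ddit3 in the mTOR and PI3K/mTOR inhibitor wells and of Trib3 in the RAF inhibitor wells (orange), each left of the range (grey line) and median (black mark) of the rest of its plate. Ddit3 was 495 CPM with PF_04979064 and 27.7 CPM with PI_103 hydrochloride, and Trib3 was 85.7 CPM with LY3009120.

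Compounds that act on the pathway itself gave no call. The PERK inhibitors GSK2606414 and GSK2656157, the eIF2B activator ISRIB (trans-isomer) and Sal003, which blocks eIF2alpha dephosphorylation, had 194, 157, 148 and 187 CPM of Atf4, where the median of plate 1 was 206.5 CPM. Their Atf4 differences were -0.09 (interval -0.84 to 0.67), -0.37 (-1.15 to 0.40), -0.48 (-1.27 to 0.30) and -0.17 (-0.91 to 0.57). Ddit3 had 46.1, 44.3, 48.4 and 49.3 CPM in these 4 wells, and 0 of 7583 genes were called in each. The Atf4 intervals reach past a change of 1 in 2 of the 4 wells. Those of Ddit3 do so in all 4, with low ends between -2.38 and -2.18. Chac1 had 0 counts in the GSK2656157, ISRIB and Sal003 wells, so a fall there could hardly be called. As a class they had Atf4 at -0.26 ± 0.19 (edgeR adjusted p = 0.84) and Ddit3 at -0.63 ± 0.44 (adjusted p = 0.83). Sal003 acts on eIF2alpha phosphorylation opposite to the PERK inhibitors, so this pooled value cannot show whether the pathway responded. On plate 3, TIC10, tomatidine and tauroursodeoxycholate sodium had 0 genes called of 8297. Cebpb with tomatidine stood at -1.27 ± 0.53 and was not called (edgeR adjusted p = 1.0).

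Over the 223 screening wells, centred on their plate medians, the members varied with each other weakly, with Spearman correlations among Atf4, Atf5, Ddit3 and Cebpb between 0.18 (Cebpb and Ddit3) and 0.45 (Cebpb and Atf5). The wells of a plate share 1 library and a range of depths. The genes most like Atf5 among 5489 were Edf1 (0.66), Sqstm1 (0.64) and Aes (0.64), those most like Cebpb were Cd81 (0.61), Nucb1 (0.59) and Timp2 (0.57), those most like Atf4 were Ptms (0.51), Arf1 (0.50) and Ywhae (0.49), and those most like Ddit3 were Ywhag (0.42), BC031181 (0.38) and Rcan1 (0.38). Counts of Trib3 and Chac1 were too sparse to read their correlations.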

How the data were processed

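Per gene and well, the deposited table gives raw counts, which the authors left unscaled. The submitters' processing notes name STAR and mm10. Its version, the counter, the annotation, and whether strand or molecular identifiers were used, are not stated in the labels. Of 274 columns 258 were used. The other 16, with names that match no well list or 2 of them, were not analysed here, and 4 exact repeats were counted once. Wells under 10% of their plate's median total were left out.

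Tests used edgeR 4.0.16 (R 4.3.3): TMM scaling, filterByExpr (minimum count 10), quasi-likelihood test, Benjamini-Hochberg adjustment over all genes of a comparison, called under 0.05. Each compound, salt forms together, was fitted against the rest of its plate. Classes had a plate term, and 8 media shared 1 fit. A standard error is the log2 fold change over the square root of F, and intervals are 1.96 of these. CPM values are counts over the well total. Likeness used log2(CPM + 1) in genes of at least 20 CPM. The scripts were tested on simulated data. Alternatives were RLE scaling, no filter, a 25% minimum total, limma 3.58.1 voom, DESeq2 1.42.0, each well alone and leaving out wells.

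Up to 4 called genes of a list with the smallest p were named, and up to 5 called compounds per member and direction, with any that changed 3 members. The members, lists, classes and tests were chosen with earlier results of these data known.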

Additional observations from a re-analysis of the deposited data

Results flagged for a closer look

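In 30 sets of wells, each 1 gene in 1 medium with 4 or 5 wells, a well far from the others was looked for, and chance alone sets about 1 in 20 such sets apart. Well 4 of bC8FAE stood apart with 360 CPM of Atf4 (next 235 CPM) and with 92.2 CPM of Atf5 (next 45.6 CPM), and it had the lowest total of the medium wells (119295). Well 4 of MEF had 108 CPM of Atf5 (next 76.7 CPM), with a total of 278827. Well 3 of bCLFAE had 4.51 CPM of Chac1 (next 1.94 CPM), which is a difference of 1 or 2 counts.

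The well named nocell_3 had a total of 25308 counts and entered no comparison. It held 6 counts of Atf4, 4 of Atf5, 6 of Ddit3 and 12 of Cebpb, each above the 3 counts that a count of 0 allows. Scaled to its small total, these were 237, 158, 237 and 474 CPM. The source of these counts, and any part of it in other wells with low totals, was not tested.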

How the results depend on the processing

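No alternative run changed the direction of a called difference, while several calls were lost. Direction was compared only for differences called in the main runs, and for counts only their size. Counts given in the report stand in brackets. In the media, without both low wells 1 member was called in bC8FAE over bCFAE (0), 2 in bC6FAE[2] over bCFAE (1) and 1 in bCSFAE over bCFAE (0). With only the wells of 2 media in the fit the last 2 counts were again 2 and 1. Against bC8FAE wells alone on plate 3, Atf4 was lower for 1 compound (0), and Atf5 was higher for 4 (2), Ddit3 for 2 (1), Chac1 for 3 (1) and Cebpb for 4 (1). Without a filter Atf5 was higher for 4 compounds (7), and with voom Chac1 for 8 (3) and Cebpb for 5 (2). The MEK class had 0 members called without a filter and 1 with DESeq2 (2), the FGFR class 0 without a filter (1), and 2 classes had a member without a filter (4). Leaving out 1 well, counts ranged over 2 to 3 for bCFAE over basal, 3 to 4 for bC8FAE over MEF, 0 to 1 for bC6FAE[2] over bCFAE, 1 to 2 for bC6FAE[10] over bCFAE, 1 to 1 for bC8FAE over bC6FAE[10] and 0 to 0 for the others, and leaving out 1 compound over 2 to 3 for mTOR, 0 to 2 for RAF, 0 to 2 for MEK and 0 to 1 for FGFR. The cause of these changes was not tested. With the well number of the column names as a replicate block, an alternative added after seeing the data, 2 members were called in bC6FAE[2] over bCFAE, 3 in bC6FAE[10] over bCFAE (2) and 1 in bCSFAE over bCFAE, and Atf4 in bC8FAE over MEF was not called (adjusted p = 0.071 in edgeR). The labels tie no number to a batch, and same-numbered wells of different media deviated together with a median correlation of 0.0078 over 94 pairs. Trib3 and Chac1 rest on few counts, pass the filter only through their high wells, and single-well compounds have no replicate.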

Other observations

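Compound wells left out for low totals held few counts of the 6 genes. FRAX486 on plate 1 had a total of 5154 with 2 counts of Cebpb, and CDK_IN_2 on plate 2 a total of 3196 with 2 counts of Atf4. FLLL32 on plate 2 had a total of 5774 with 2 counts each of Atf4, Ddit3 and Cebpb, and LY2857785 on plate 3 a total of 3528 with 1 count of Atf4. The well nocell_2 had a total of 4280 with 1 count of Ddit3.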
